A study of Mus musculus with 4 samples.

Results

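Adipsin (Cfd) and 5 further genes that fat cells express strongly, Adipoq, Retn, Fabp4, Plin1 and Car3, were followed in whole-liver RNA of male mice. The 6 genes were chosen by name, and every probe whose transcript accession mapped to one of these symbols was taken, which gave 9 of the 56605 probes and 6 of the 23462 gene symbols on the array. The names were picked with values of these arrays already known. Their differences are therefore given as a description of 4 arrays, with no test.

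Liver RNA was hybridised to Agilent 1-colour arrays, with 1 array for each of 4 groups and no replicates. The groups were aging diabetic mice given astragalus polysaccharide (APS, a plant polysaccharide) together with metformin, called APS plus metformin here; aging diabetic mice given metformin alone, called metformin; aging diabetic mice given no drug, called aging diabetic; and naturally aging mice given no drug, called natural aging. Metformin is a widely used glucose-lowering drug. All mice were male and were fasted before death, and every sample title carries 60 days. The labels used here give no strain, age or dose, do not say how diabetes was induced, and leave unsaid if livers of several mice were pooled.

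A level is the log2 of a spot's processed signal minus the 75th percentile of its array, so a level of 0 is the brightness of that percentile. Of 59305 non-control spots, between 33668 and 37402 per array were well above background, and the lowest level that counted as such lay between -4.95 and -4.52. The error beside a difference combines the scanner software's errors of both spots and covers the measurement alone, not the spread between mice. A difference of at least 2-fold (1 on the log2 scale) is called higher or lower. With 1 array per group, no difference has a replicate check. In whole liver, fewer cells of a type and less RNA per cell cannot be told apart. The tissue label was borne out by hepatocyte markers: all 8 with a usable probe were well above background on every array.

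Fat cells secrete hormones and enzymes into the blood and store triglyceride in droplets. Adipsin is complement factor D, the serine protease that cleaves factor B and so starts the amplification loop of the alternative complement pathway; in mice, fat tissue is its main source. Adiponectin and resistin are secreted hormones, the fatty acid binding protein FABP4 and the droplet coat perilipin 1 work inside the cell, and the liver itself expresses some of these genes, carbonic anhydrase 3 among them.

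Cfd varied widely between the 4 livers, while Adipoq, Retn and Car3, the other members measured on all 4 arrays, each stayed within a 2-fold range by the brightest probe. Cfd was highest under metformin alone and lowest under APS plus metformin. The 6 genes thus did not move as 1 group, and Plin1 was not well above background on any array.

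By its brighter probe, Cfd had a level of -4.17 in the APS plus metformin liver, -0.38 in the metformin liver, -2.67 in the aging diabetic liver and -3.05 in the natural aging liver. The processed signals behind these levels were 189 for APS plus metformin, 2766 for metformin, 483.5 for aging diabetic and 325 for natural aging, all well above background. Cfd stood alone at the high end in the metformin liver, and the aging diabetic and natural aging livers lay near each other. Cfd was 4.89-fold higher in the metformin liver than in the aging diabetic liver (log2 difference 2.29, error 0.178). It was 2.84-fold lower in the APS plus metformin liver than in the aging diabetic liver (log2 difference -1.50, error 0.259). It was 13.9-fold lower in the APS plus metformin liver than in the metformin liver (log2 difference -3.79, error 0.249). Against the natural aging liver, Cfd was 6.40-fold higher in the metformin liver (log2 difference 2.68, error 0.195) and 2.17-fold lower in the APS plus metformin liver (log2 difference -1.12, error 0.27). The aging diabetic liver exceeded the natural aging liver by 0.39 on the log2 scale (error 0.206), which is under 2 errors and below the 2-fold threshold.

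The dimmer Cfd probe gave the same order at the top. Its signal was 26.6 in the APS plus metformin liver, 1359 in the metformin liver, 224 in the aging diabetic liver and 122 in the natural aging liver, and the first and last of these were not well above background. By this probe Cfd was 5.18-fold higher in the metformin liver than in the aging diabetic liver (log2 difference 2.37, error 0.236). Where a side was not well above background, the higher of its own level and the lowest level well above background stood for it, and the fold is a lower bound. On that footing Cfd was at least 10.9-fold lower in the APS plus metformin liver than in the metformin liver, and at least 2.10-fold lower than in the aging diabetic liver. It was at least 8.35-fold higher in the metformin liver than in the natural aging liver. The APS plus metformin and natural aging livers could not be compared by it, since both were dim.

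The promoter windows of 3 members are shown because these members took the 3 courses seen here: Cfd varied, Adipoq was bright and steady, and Plin1 was not detected. Each runs from 250 bases before to 50 after the gene's start in RefSeq's annotation of GRCm38.p6, 5′ to 3′ on the gene's own strand. Cfd lies at chr10:79890603-79890902 on the plus strand, Adipoq at chr16:23146286-23146585 on the plus strand and Plin1 at chr7:79732727-79733026 on the minus strand. Capitals mark matches, on either strand, to any of 5 motifs, which do not overlap in these windows. The motifs are the TATA box (TATAAA), the CCAAT box (CCAAT), the GC box (GGGCGG), the nuclear receptor half-site (AGGTCA) and the C/EBP core (TTGCNNAA, where N is any base).
Cfd: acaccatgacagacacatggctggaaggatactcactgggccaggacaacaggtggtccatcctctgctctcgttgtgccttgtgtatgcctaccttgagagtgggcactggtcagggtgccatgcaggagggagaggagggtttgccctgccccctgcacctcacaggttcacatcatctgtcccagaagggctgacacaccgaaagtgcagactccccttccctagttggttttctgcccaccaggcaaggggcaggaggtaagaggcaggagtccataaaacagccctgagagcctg
Adipoq: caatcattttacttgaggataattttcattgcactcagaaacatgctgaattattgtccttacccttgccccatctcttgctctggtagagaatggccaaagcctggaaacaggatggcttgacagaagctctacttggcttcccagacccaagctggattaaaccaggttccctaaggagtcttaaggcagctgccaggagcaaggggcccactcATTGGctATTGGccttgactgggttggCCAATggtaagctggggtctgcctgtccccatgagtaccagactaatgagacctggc
Plin1: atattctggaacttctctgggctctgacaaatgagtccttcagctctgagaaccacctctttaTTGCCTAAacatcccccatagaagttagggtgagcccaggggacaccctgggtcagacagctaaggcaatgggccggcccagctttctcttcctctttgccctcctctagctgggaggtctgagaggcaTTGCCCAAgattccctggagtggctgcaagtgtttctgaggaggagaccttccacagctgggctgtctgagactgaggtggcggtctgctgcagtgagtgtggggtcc
Adipoq held 3 matches to CCAAT, which start 34, 27 and 7 bases before the start site. The first 2 read as ATTGG because they lie on the other strand. CCAAT occurs in 37.4% of 32851 windows of this length. Plin1 held 2 matches to TTGCNNAA, the core bound by C/EBP factors, at 187 and 58 bases before the start, and 10.8% of windows hold one. The Cfd window held no match to these 5 motifs, and nor did that of Retn on chromosome 8. The TATA box letters occur in 13.6% of the windows, those of the GC box in 35.7% and those of the nuclear receptor half-site in 16.3%. A match describes letters and is not evidence of binding, and the arrays measured nothing at these windows.

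Adipoq encodes adiponectin, a hormone that raises insulin sensitivity. Its level was 1.01 in the APS plus metformin liver, 0.71 in the metformin liver, 0.53 in the aging diabetic liver and 0.91 in the natural aging liver. It was thus above the 75th percentile on every array and highest where Cfd was lowest. The APS plus metformin liver exceeded the aging diabetic liver by 0.48 on the log2 scale (error 0.164). The aging diabetic liver lay below the natural aging liver (log2 difference -0.39, error 0.164), and none of the 6 comparisons reached 2-fold.

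Retn encodes resistin, a hormone of mouse fat cells linked in mice to insulin resistance. By its brighter probe the level was -1.47 in the APS plus metformin liver, -1.22 in the metformin liver, -1.59 in the aging diabetic liver and -1.44 in the natural aging liver. The metformin liver was highest, by 0.37 over the aging diabetic liver, and the other 3 livers lay close together. The dimmer Retn probe spread further, with levels of -4.37 in the APS plus metformin liver, -3.34 in the metformin liver, -4.75 in the aging diabetic liver and -4.31 in the natural aging liver, of which that of the aging diabetic liver was not well above background. By that probe Retn was at least 2.67-fold higher in the metformin liver than in the aging diabetic liver, and 2.05-fold lower in the APS plus metformin liver than in the metformin liver (log2 difference -1.04, error 0.284). The 2 probes of Retn therefore agreed that the metformin liver was highest and disagreed on whether the gap reached 2-fold.

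Fabp4 encodes a fatty acid carrier of fat cells, macrophages and endothelium. Its brighter probe had levels of 3.55 in the APS plus metformin liver, 3.15 in the metformin liver and 3.62 in the natural aging liver. On the aging diabetic array both Fabp4 spots were marked as non-uniform by the scanner software, so Fabp4 enters no count. Between the unmarked arrays, Fabp4 differed by 0.40 for APS plus metformin against metformin by the brighter probe and by 0.14 by the dimmer one. The metformin liver lay below the natural aging liver by the brighter probe (log2 difference -0.46, error 0.163) and level with it by the dimmer probe (log2 difference -0.04). With the marked spots kept, the aging diabetic liver was below the natural aging liver by both probes, with log2 differences of -0.61 and -0.73, short of 2-fold.

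Plin1 encodes the perilipin that coats the large lipid droplet of fat cells and gates lipolysis there. Its signal was 26.1 in the APS plus metformin liver, 41.7 in the metformin liver, 26.9 in the aging diabetic liver and 26.7 in the natural aging liver. None of the 4 signals was well above background, so Plin1 has no fold in any comparison.

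Car3 encodes carbonic anhydrase 3, a cytosolic enzyme abundant in fat, slow muscle and liver. Its level was 3.75 in the APS plus metformin liver, 3.64 in the metformin liver, 3.71 in the aging diabetic liver and 4.28 in the natural aging liver. The 3 diabetic livers lay within 0.11 of one another, below the natural aging liver by 0.53 to 0.64 on the log2 scale. Against the natural aging liver the differences were -0.53 for APS plus metformin, -0.64 for metformin and -0.57 for aging diabetic (error 0.163 each). Other bright genes shifted the same way: the median over 2742 genes with a mean level of 2 or more was -0.17 for APS plus metformin, -0.36 for metformin and -0.20 for aging diabetic against natural aging. Under quantile normalization the Car3 difference for metformin against natural aging was -0.11, and that for aging diabetic against natural aging was -0.23.

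**Figure D1:**
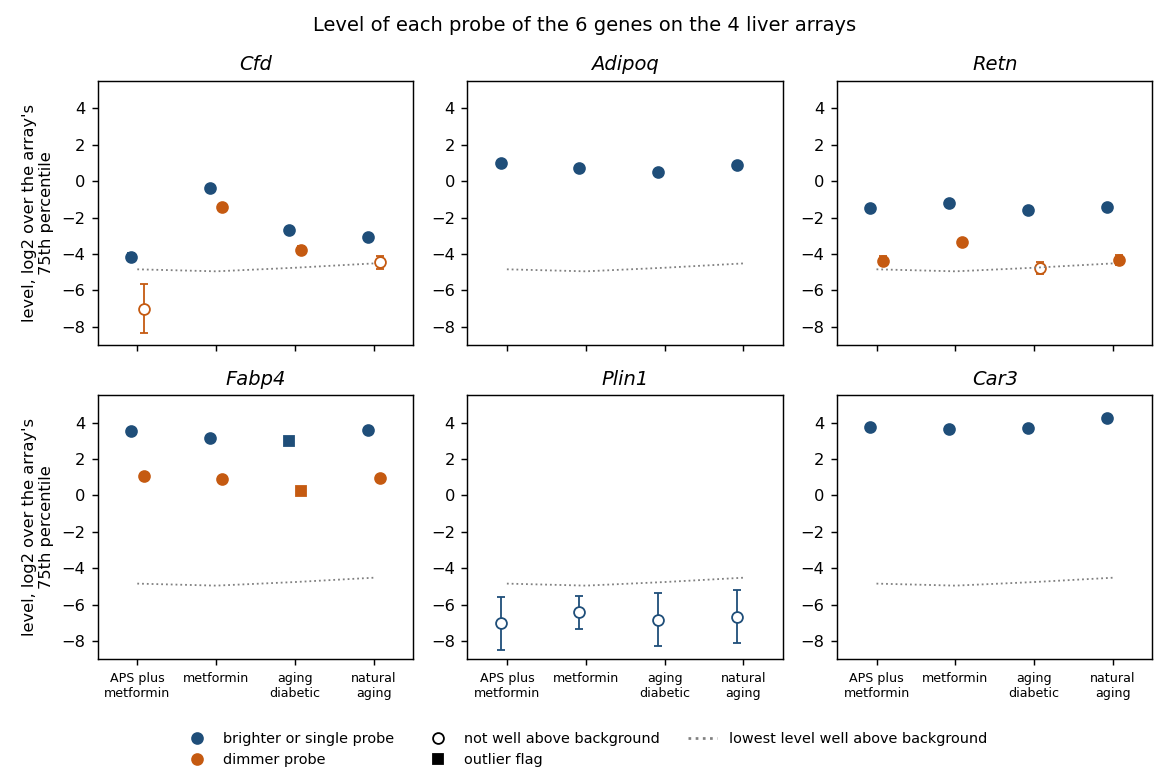
Level of every probe of the 6 genes (log2 of processed signal over the array's 75th percentile, vertical axis) on the 4 arrays, 1 array per group; bars are the scanner software's measurement errors, open symbols are not well above background, squares carry an outlier flag and the dotted line is the lowest level well above background. Cfd spans -4.17 to -0.38 by its brighter probe, while Adipoq, Retn and Car3 stay within 0.64 by their brightest probes.

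In each comparison, 4 of the 5 members with a usable probe were compared, namely Cfd, Adipoq, Retn and Car3, and Cfd was the sole member past 2-fold in any of them. For metformin against aging diabetic, 1 of the 4 members was at least 2-fold higher, against 11.9% of all 15562 genes compared, and 0 were lower, against 3.53% of all genes. Between APS plus metformin and aging diabetic, 0 were higher, against 4.38% of all genes, and 1 was lower, against 6.90%. Setting APS plus metformin against metformin, 0 were higher, against 2.37% of all genes, and 1 was lower, against 12.4%.

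The remaining comparisons use the natural aging array as their base. For aging diabetic against natural aging, 0 members were higher, against 8.20% of all genes, and 0 were lower, against 6.09%. For metformin against natural aging, 1 member was higher, against 13.0% of all genes, and 0 were lower, against 4.71%. Between APS plus metformin and natural aging, 0 were higher, against 6.14%, and 1 was lower, against 6.68%. The 6 comparisons share arrays and are not separate evidence. Since earlier values of Cfd were known when the members were chosen, nothing is read from these counts.

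Among all genes the Cfd difference stood farthest out for the 2 drug groups. For APS plus metformin against metformin, 23 of 15599 genes (0.147%) were lower by as much or more, counting the direction of Cfd alone. Counted likewise in the direction of Cfd, the share was 1.32% for metformin against aging diabetic and 2.99% for APS plus metformin against aging diabetic. It was 23.1% for aging diabetic against natural aging. Over the 12689 genes well above background on all 4 arrays, the median range between the highest and lowest level was 0.67, and 0.65% had a range at least as wide as that of Cfd. The ranges of Adipoq, Retn and Car3 were ordinary by that measure: 69.7%, 83.1% and 52.6% of these genes had at least as wide a range.

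**Figure D2:**
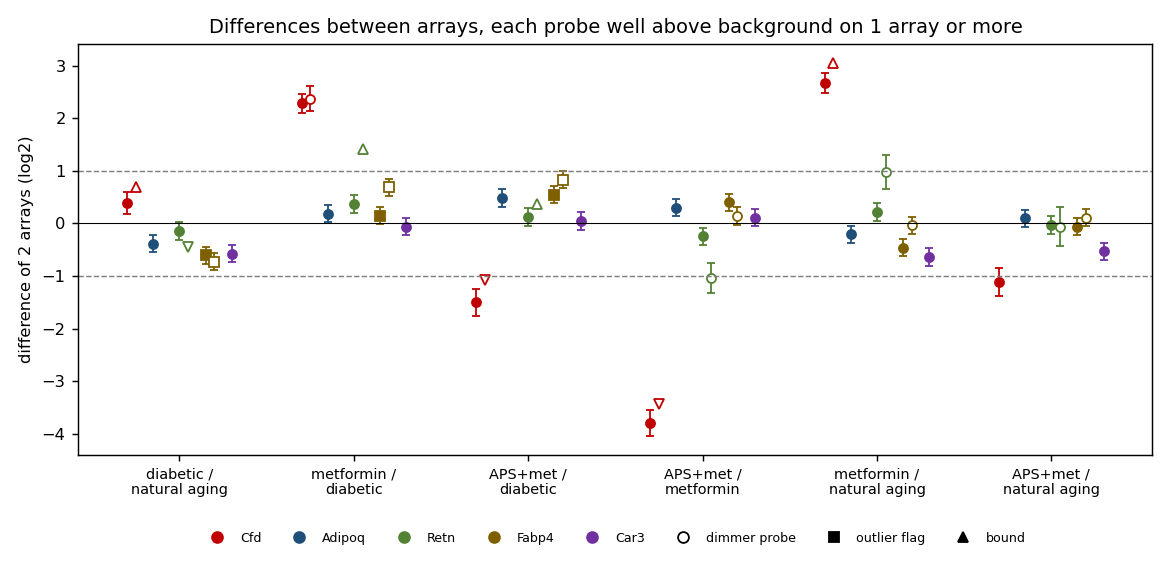
Log2 difference of each member probe well above background on at least 1 array (vertical axis) in the 6 comparisons (horizontal axis); bars are the combined measurement errors of both spots, triangles are bounds without bars, open symbols are dimmer probes, squares carry an outlier flag and dashed lines mark 2-fold. Cfd lies at 2.29 for metformin against aging diabetic and -3.79 for APS plus metformin against metformin by its brighter probe, and the brightest probes of Adipoq, Retn, Fabp4 and Car3 stay between the dashed lines.

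The genes nearest to the Cfd pattern were sought among 3255 genes that were well above background on all 4 arrays and spanned at least 1 on the log2 scale. Likeness was the Euclidean distance between profiles over the 4 arrays, each centred on its own mean. The 5 nearest were Cdkn3 at a distance of 0.53, Ms4a7 at 0.55, Ccn5 at 0.57, Cdca3 at 0.66 and Chil3 at 0.68. Cdkn3, a phosphatase that acts on cyclin-dependent kinases, had levels of -4.34 in the APS plus metformin liver, -0.21 in the metformin liver, -3.23 in the aging diabetic liver and -3.37 in the natural aging liver. Cdca3, a gene of the cell division cycle, had levels of -3.22 in the APS plus metformin liver, -0.28 in the metformin liver, -2.46 in the aging diabetic liver and -2.74 in the natural aging liver. Ccn5, a secreted matricellular protein, had levels of -4.72 in the APS plus metformin liver, -1.51 in the metformin liver, -4.00 in the aging diabetic liver and -4.05 in the natural aging liver. All 3 separated the metformin liver from the rest. Chil3, a chitinase-like protein secreted by macrophages, had levels of -3.11 in the APS plus metformin liver, 0.48 in the metformin liver, -0.97 in the aging diabetic liver and -1.53 in the natural aging liver. Ms4a7, a membrane protein of macrophages, had levels of -2.81 in the APS plus metformin liver, 0.52 in the metformin liver, -1.40 in the aging diabetic liver and -1.39 in the natural aging liver. Like Cfd, all 5 were highest in the metformin liver and lowest in the APS plus metformin liver. With 4 points per gene, a close profile is a description of these arrays.

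**Figure D3:**
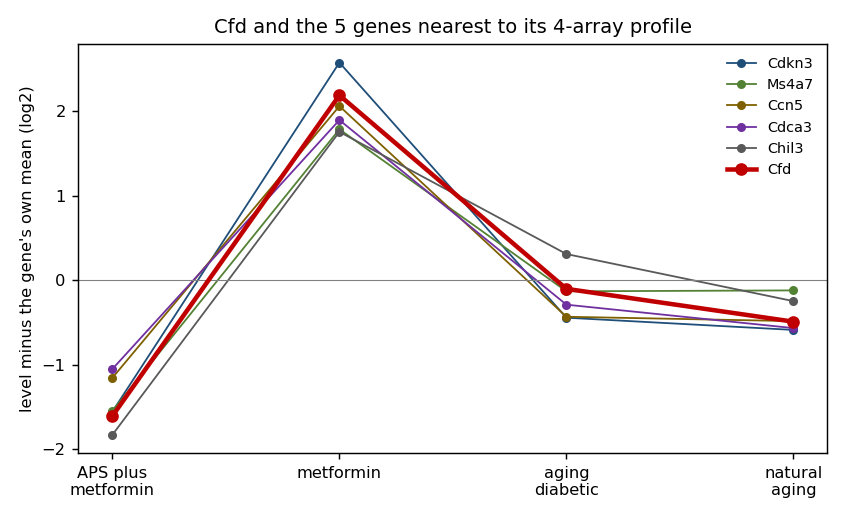
Levels of Cfd and its 5 nearest genes on the 4 arrays, each centred on its own mean over the arrays (log2 units, vertical axis); lines join the values of 1 gene. All 6 peak in the metformin liver and are lowest in the APS plus metformin liver.

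The mean profile of Cfd, Adipoq, Retn and Car3 was highest in the metformin liver and lowest in the APS plus metformin liver. Cfd is part of that mean and ranged over 3.79, against 0.48 for Adipoq, 0.37 for Retn and 0.64 for Car3. The likeness of the mean to Cfd in these livers is therefore built in. Adipoq itself was highest in the APS plus metformin liver and Car3 lowest in the metformin liver. Unlike Cfd, the mean was lower in the aging diabetic liver than in the natural aging liver. The nearest genes to that mean were Nenf at a distance of 0.12, H2ac13 and Cxcl16 at 0.14, and Zmynd15 and Rgs14 at 0.15. The neighbours of Cfd on chromosome 10 were named after their values were seen. On one side lies Elane, which encodes neutrophil elastase, and beyond it Prtn3, which encodes the neutrophil protease proteinase 3. Elane was not well above background in the APS plus metformin and metformin livers, and had a level of -3.07 in the aging diabetic liver and -4.44 in the natural aging liver. It was thus lower in the metformin liver than in the aging diabetic liver (log2 difference -1.88, a bound), opposite to Cfd. Elane was also lower in the APS plus metformin liver than in the aging diabetic liver (-1.77, a bound), the same way as Cfd. Prtn3 was not well above background in the APS plus metformin liver, and had a level of -0.77 in the metformin liver, -1.68 in the aging diabetic liver and -0.72 in the natural aging liver. Its difference was 0.91 for metformin against aging diabetic. For APS plus metformin it was -3.16 against aging diabetic and -4.075 against metformin, both bounds. These went the same way as Cfd, but metformin against natural aging gave -0.04, where Cfd was higher. The neighbour on the other side, Med16, a subunit of the Mediator complex, stayed between 3.79 and 4.30.

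Other fat cell genes did not share 1 direction with Cfd. Of 19 further white adipocyte genes, all with a usable probe, 12 were well above background on every array and 3, Acvr1c, Hcar1 and Arxes1, on none. For metformin against aging diabetic, 2 of the 15 compared were higher and 2 lower by their brightest probes, with a median of -0.01. The higher ones were Plin4, another droplet coat protein (log2 difference 2.43), and Trarg1, which acts in glucose transporter trafficking (at least 5.80-fold, a bound). The lower ones were Adrb3, the fat cell's beta-3 adrenergic receptor (-2.39), and Slc2a4, the insulin-responsive glucose transporter GLUT4 (-1.46). Dimmer probes added calls here: Lpl was higher by its other probes (1.18 and 1.28), as was Aqp7 (2.30, a bound). The other Adrb3 probe was again lower (-1.44, a bound). In each comparison the median over all genes compared lay between -0.04 and 0.02. The shares of all genes past 2-fold, given above for each comparison, are the background for the list counts here and below. For metformin against aging diabetic they were 11.9% higher and 3.53% lower.

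In the APS plus metformin liver, 2 of 14 white adipocyte genes were higher and 2 lower than in the aging diabetic liver, with a median of -0.33. Plin4 was higher there too (2.33), and Cidec, which enlarges lipid droplets, was lower (-1.91). Relative to the metformin liver, 1 of 15 was higher and 3 were lower in the APS plus metformin liver, with a median of -0.21: Adrb3 was higher (1.45), while Cidec (-1.90), Trarg1 (-1.19) and Lpl, the lipase that frees fatty acids from lipoproteins (-1.34), were lower. In that comparison a dimmer Aqp7 probe was also lower (-2.40, a bound), and the dimmer Adrb3 probe did not reach 2-fold (0.67, a bound). For metformin against natural aging, 6 of 16 were higher and 2 lower, with a median of 0.21. Over all genes, 13.0% were higher and 4.71% lower in that comparison. Between APS plus metformin and natural aging, 2 of 15 were higher and 3 lower, and for aging diabetic against natural aging, 1 of 14 was higher and 1 lower. The leptin gene Lep stayed between -3.35 and -3.10 on the 4 arrays. The summed signal of the list, in units of the 75th percentile, was 9.75 in the APS plus metformin liver, 15.6 in the metformin liver, 13.3 in the aging diabetic liver and 8.54 in the natural aging liver.

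Markers of other cells that a liver piece may carry were set beside Cfd. Of 7 macrophage markers, 2 were higher and 0 lower for metformin against aging diabetic, with a median of 0.74: Gpnmb (2.77) and Trem2 (1.77), both surface proteins of lipid-laden macrophages. Set against the metformin liver, the APS plus metformin liver had 0 of 7 higher and 3 lower, with a median of -0.89: Gpnmb (-2.63), Trem2 (-2.61) and Adgre1, which encodes F4/80 (-1.50). The macrophage list summed to 21.8 in the APS plus metformin liver, 33.3 in the metformin liver, 27.4 in the aging diabetic liver and 34.0 in the natural aging liver. In the APS plus metformin liver, 0 of 7 were higher and 0 lower than in the aging diabetic liver (median -0.28), a comparison in which Cfd was 2.84-fold lower. Clec4f, a marker of resident Kupffer cells, had a difference of -0.34 for metformin against aging diabetic. These counts rest on the brightest probes. Over all genes, 11.9% were higher for metformin against aging diabetic and 12.4% were lower for APS plus metformin against metformin. A second Cd68 probe was higher for metformin against aging diabetic (1.13) and lower for APS plus metformin against metformin (-1.23) and against natural aging (-1.05). A second Csf1r probe went the other way, with -0.50 for metformin against aging diabetic and 0.23 for APS plus metformin against metformin. Against natural aging, 0 were higher and 2 lower in the APS plus metformin liver, and 1 was higher and 0 lower in the aging diabetic liver. Of the 7, 6 were well above background on every array and all 7 on 3 of the 4. For metformin against natural aging, 2 were higher and 0 lower, with a median of 0.12, while the summed levels of those livers lay close together. Their part in the Cfd differences was not tested.

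Pancreatic acinar enzymes were also highest in the metformin liver and lowest in the APS plus metformin liver among the diabetic mice. Of 8 with a usable probe, 7 were higher for metformin against aging diabetic (median 2.01), 7 were lower for APS plus metformin against aging diabetic (median -2.11) and 8 were lower for APS plus metformin against metformin. They summed to 0.341 in the APS plus metformin liver, 11.8 in the metformin liver, 2.85 in the aging diabetic liver and 57.6 in the natural aging liver, where Cfd was low. All 8 were well above background on every array but that of APS plus metformin, where 3 were. Their part in the Cfd differences was not tested.

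Of 10 adipose stroma markers, 2 were higher and 0 lower for metformin against aging diabetic (median 0.54): Fbn1, the microfibril protein fibrillin 1 (1.95), and Pdgfra, a growth factor receptor of fibroblasts (1.09). The same 2 genes were higher, and 0 lower, in the APS plus metformin liver than in the aging diabetic liver (median 0.03), where Cfd was lower. For metformin against natural aging 3 were higher and 0 lower (median 0.22): the surface protein genes Ly6a (1.74) and Cd34 (1.41), and Fbn1 (1.57). For aging diabetic against natural aging 1 was higher and 1 lower, and for APS plus metformin against natural aging 1 of 9 was higher. By their brightest probes, none of the 10 passed 2-fold in either direction for APS plus metformin against metformin. A second Pdgfra probe was higher there (1.15, error 0.355). For metformin against aging diabetic that probe gave no difference (0.0, a bound), while a second Cd34 probe was higher (1.24, a bound). Over all genes, 11.9% were higher for metformin against aging diabetic, 4.38% for APS plus metformin against aging diabetic and 13.0% for metformin against natural aging. The part of the stroma markers in the Cfd differences was not tested. Of 8 endothelial markers, Cdh5, the cadherin of endothelial junctions, was the sole one past 2-fold in any comparison (1.11, APS plus metformin against aging diabetic). Of 8 skeletal muscle markers, Ckm and Mb, which encode muscle creatine kinase and myoglobin, were not well above background on any array, whereas 3 others were on every array. Of those compared, 1 of 4 was higher and 0 lower for APS plus metformin against aging diabetic. For APS plus metformin against metformin, 1 of 6, Myh4, was higher and 0 lower. The other Myh4 probe did not reach 2-fold there (-0.15, a bound). Of 6 brown adipocyte markers, the uncoupling protein gene Ucp1 was not well above background on any array. On every array, 4 of the 6 were well above background. For metformin against aging diabetic 2 of 5 brown markers were higher, Cidea (1.97) and Elovl3 (1.01). For APS plus metformin against metformin 1 was higher, Ppargc1b (1.46), and 2 lower, Cidea (-2.08) and Elovl3 (-2.07). Elovl3 was also lower for aging diabetic against natural aging (-3.19). The hepatocyte list held no call in any comparison by the brightest probes. A second Hnf4a probe was higher against natural aging for aging diabetic (1.09), metformin (1.28) and APS plus metformin (1.79). A second Apob probe was higher for metformin against natural aging (1.16).

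**Figure D4:**
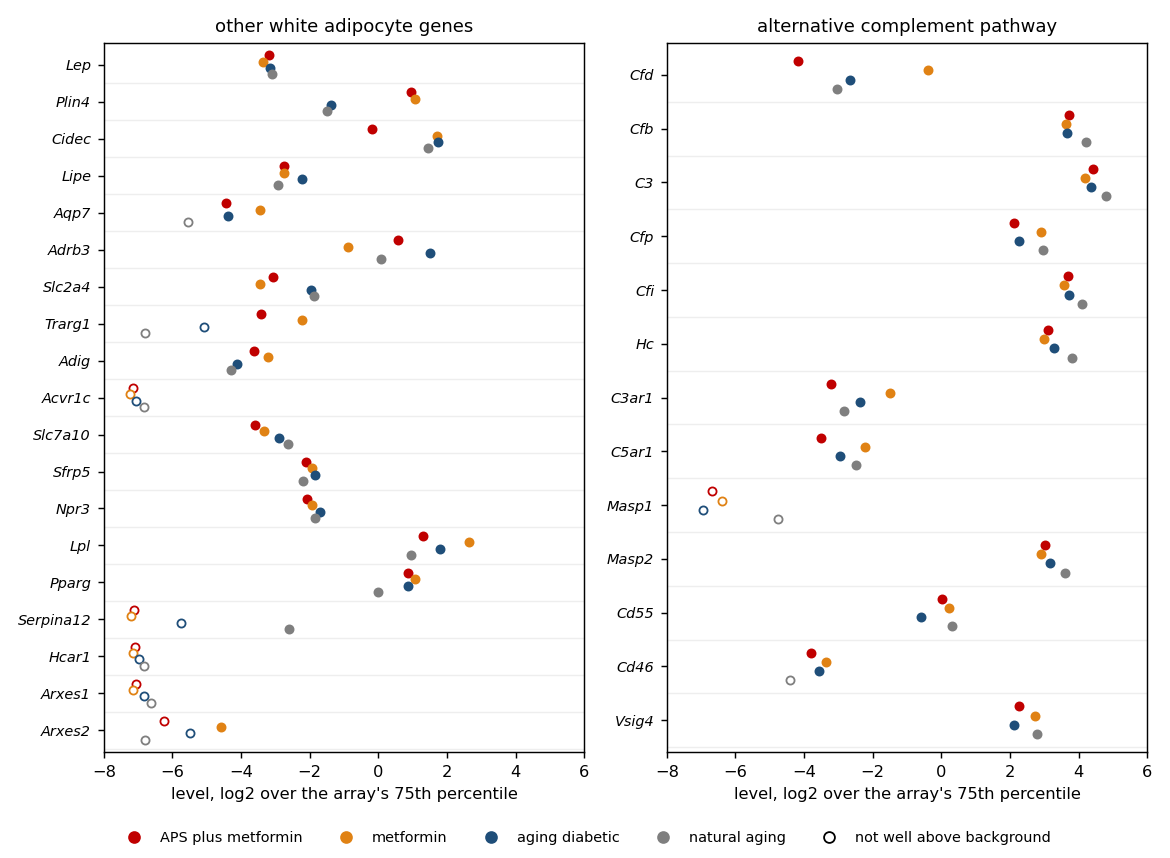
Level of each gene with a usable probe among the other white adipocyte genes (left) and the alternative complement pathway (right), as log2 of processed signal over the array's 75th percentile (horizontal axis), with 1 point per array in the colour of its group; open points are not well above background. Acvr1c, Hcar1 and Arxes1 are open on all 4 arrays, and the points of Cfd spread from -4.17 to -0.38.

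Few other genes of the alternative complement pathway, in which adipsin acts, passed 2-fold by their brightest probes. Of 13 genes with a usable probe, 12 were compared for metformin against aging diabetic, and Cfd was the sole one higher, with 0 lower (median 0.40). Between APS plus metformin and aging diabetic, Cfd was again the sole one lower and 0 were higher (median -0.14). Comparing APS plus metformin with metformin, 3 were lower and 0 higher: Cfd and the receptors of the complement peptides C3a and C5a, C3ar1 (-1.70) and C5ar1 (-1.27). The substrate of adipsin, factor B (Cfb), had levels of 3.73 in the APS plus metformin liver, 3.63 in the metformin liver, 3.65 in the aging diabetic liver and 4.20 in the natural aging liver. C3, the central complement protein, had levels of 4.42 in the APS plus metformin liver, 4.17 in the metformin liver, 4.36 in the aging diabetic liver and 4.78 in the natural aging liver. For metformin against natural aging 3 were higher, namely Cfd, C3ar1 (1.33) and the complement regulator Cd46, whose value is a bound (1.05) and whose other probes gave 0.08 and 0.01. Against natural aging, 0 were higher and 0 lower for aging diabetic, and 0 were higher and 1, Cfd, lower for APS plus metformin. A second Cfp probe was lower in both of these comparisons (-1.09 and -1.04). For aging diabetic against natural aging a dimmer Cd55 probe was lower (-1.11) and a further one gave -0.94.

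The receptors for fat cell hormones were measured in 7 genes. The adiponectin receptor Adipor1 had levels of 1.67 in the APS plus metformin liver, 1.84 in the metformin liver, 1.48 in the aging diabetic liver and 1.70 in the natural aging liver. Adipor2 had levels of 0.29 in the APS plus metformin liver, 0.58 in the metformin liver, 1.07 in the aging diabetic liver and 0.57 in the natural aging liver. By the brightest probes, the leptin receptor Lepr was the sole call of this list for metformin against aging diabetic, 20.4-fold lower (log2 difference -4.35, error 0.198). It was higher for APS plus metformin against metformin (3.12). A second probe of Cdh13, a further gene of the list, was higher for metformin against aging diabetic (1.61, error 0.196), where its brightest probe gave 0.67. That second probe was also higher for APS plus metformin against aging diabetic (1.46) and lower for aging diabetic against natural aging (-1.27).

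The relatives of Fabp4 did not share 1 course. Fabp5, which fat cells, macrophages and skin express, had levels of 0.25 in the APS plus metformin liver, 1.94 in the metformin liver, 1.83 in the aging diabetic liver and 3.49 in the natural aging liver. Between APS plus metformin and aging diabetic Fabp5 was the sole call of 7 (-1.57). For metformin against aging diabetic 2 of 7 were higher, against 11.9% of all genes: Fabp12 (1.58) and Fabp6, the ileal bile acid carrier (1.11). Set against metformin alone, the APS plus metformin liver had 3 of 7 lower and 0 higher, Fabp12 (-1.84), Fabp5 (-1.68) and Fabp3, the heart and muscle form (-1.40). Among the perilipins, Plin4 had levels of 0.97 in the APS plus metformin liver, 1.06 in the metformin liver, -1.37 in the aging diabetic liver and -1.50 in the natural aging liver. The treated livers were thus both high in Plin4, whereas Cfd separated them.

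Genes of lipolysis, the release of fatty acids from droplets, included 3 large differences. Between APS plus metformin and aging diabetic 3 of 11 were lower and 0 higher, with a median of -0.52: G0s2, an inhibitor of the triglyceride lipase ATGL (-2.90), Pnpla3, a relative of that lipase (-2.56), and Cidec (-1.91). Against metformin alone, 4 of 11 were lower and 1 higher in the APS plus metformin liver. Over all genes, 6.90% were lower against aging diabetic, and 12.4% were lower and 2.37% higher against metformin alone. Of 14 genes listed as PPAR-gamma targets of fatty liver, 9 had a usable probe. Of these, 5 were lower and 0 higher for APS plus metformin against metformin (median -1.34), where 12.4% of all genes were lower. For metformin against natural aging 6 were higher and 0 lower (median 1.61), where 13.0% of all genes were higher. PPAR-gamma is the main transcription factor of fat cells.

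The kin of Retn and Car3 had values of their own. Retnla, a resistin-like protein of alternatively activated macrophages, was not well above background in the APS plus metformin and aging diabetic livers, and had a level of -3.44 in the metformin liver and -2.88 in the natural aging liver. Retnlg had levels of -0.92 in the APS plus metformin liver, -0.34 in the metformin liver, -0.68 in the aging diabetic liver and 0.96 in the natural aging liver. Among carbonic anhydrases, 1 of 13 was higher and 1 lower for metformin against aging diabetic. Car2, a cytosolic form, was lower for aging diabetic against natural aging (-1.51) and higher for metformin against aging diabetic (1.08). Car3 also belongs to a list of 15 male-biased liver genes, of which 1 of 11 was higher and 5 were lower for aging diabetic against natural aging, with a median of -0.75.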

How the data were processed

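Total RNA from whole liver was labelled with Cy5 and hybridised to Agilent arrays, 1 per group on 1 slide. The deposited scanner files hold intensity values (processed signal) made with Agilent Feature Extraction, version 11.5.1.1 per the file headers and 10.7 per the submitters' processing notes, with flags per spot. The deposited series table holds log2 values, made by the authors in GeneSpring per the labels' protocols, and served as an alternative.

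Here log2 of the processed signal was taken minus each array's 75th percentile over non-control spots. Outlier-flagged spots were dropped, and repeat spots of a probe were averaged. Of 56605 probes, 33767 mapped to a symbol, and 22047 genes had a usable probe. The brightest usable probe stood for a gene. Comparison of a gene required a signal well above background on 1 array or both, and a dim side was set to the higher of its own level and the lowest level well above background. Calls were differences of at least 2-fold. With 1 array per group no test was run, and the number of arrays limits the precision.

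The members and the 17 gene lists were chosen with earlier results of these data known. Named were the members, up to 4 genes per list with the largest differences in the comparison described, and the 5 nearest profiles. From the family lists, only some of the detected genes were named. Alternatives were normexp (offset 50, limma 3.58.1 in R 4.3.3), quantile normalization, the median of detected probes, outlier spots kept, the authors' table, the mean of probes and both arrays detected. Normexp was run on median spot signals in place of the mean signals planned. Python 3.11.15, numpy 2.4.6, pandas 2.3.3 and matplotlib 3.10.9 were used. The comparison code was tested on simulated data. Gene names and promoter windows came from RefSeq (GRCm38.p6).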

Additional observations from a re-analysis of the deposited data

How the results depend on the processing

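Across 7 alternatives, 82 of 84 counts of members past 2-fold were as reported or within 1.5 times. The count of members at least 2-fold lower for APS plus metformin against natural aging was 0, against 1 as reported, under normexp background correction, where the Cfd difference was -0.98, and under the mean of probes, where Cfd could not be compared because too few of its probes were detected. The Cfd difference was 2.02 to 2.33 for metformin against aging diabetic, -1.62 to -1.33 for APS plus metformin against aging diabetic, -3.95 to -3.34 for APS plus metformin against metformin, 2.37 to 2.87 for metformin against natural aging and -1.14 to -0.98 for APS plus metformin against natural aging, over the reported setting and the alternatives. No called member changed sign. No paired analysis was possible because each group has 1 array. Leaving out a replicate was not possible for the same reason. Signals not well above background limit the dimmer probes of Cfd and Retn, the Fabp4 spots marked as non-uniform limit that gene, and the single slide and scan leave nothing to compare between batches.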
